A study of Mus musculus with 8 samples.

Results

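The intercalated disc is the junction at which heart muscle cells meet end to end. The 10 genes described here encode its core parts and were chosen by gene symbol from the 24411 symbols in the deposited tables. The 3 gap junction genes are Gja1, Gja5 and Gjc1, the 5 desmosome genes are Dsp, Pkp2, Jup, Dsg2 and Dsc2, and the 2 adherens junction genes are Cdh2 and Ctnna3. The study measured polyadenylated RNA in hearts of C57BL/6 mice 1 week after transverse aortic constriction, a surgical narrowing of the aorta that loads the left ventricle. The 4 mutant mice were cardiac-specific knockouts of the transcription factor Yin-Yang 1 (YY1 KO), and the other 4 were MerCreMer controls. MerCreMer is a Cre recombinase that works only after a drug binds it. All 8 mice had the surgery, so the comparison is between genotypes under load and not between loaded and unloaded hearts. The promoter of the Cre transgene, the drug schedule, the age of the mice, the number of lines and the part of the heart taken are stated in none of the sources used here.

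Gap junctions are channels, built from connexins, that pass current and small molecules from cell to cell. Desmosomes tie the intermediate filaments of neighbouring cells together through desmosomal cadherins and plaque proteins, and adherens junctions tie their actin and sarcomeres together through N-cadherin and the catenins. In heart muscle the last 2 kinds mix into a shared structure, the area composita, and inherited faults in desmosome genes are a known cause of arrhythmogenic cardiomyopathy.

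Each library held 23869112 to 23966753 reads, of which 14582605 to 16000455 lay in genes. Yy1 itself was at 18.04, 22.34, 19.94 and 23.82 CPM (a gene's reads scaled to a common library total) in YY1 KO hearts, against 33.81, 37.16, 36.32 and 37.12 CPM in control hearts. Every YY1 KO value lay below every control value, at 58.3% of the control mean (log2 fold change −0.78 ± 0.10 SE, adjusted p = 0.000769). The series text calls all mice male, but 4 libraries went against that label. YY1 KO 1, YY1 KO 4, control 1 and control 4 held 2156 to 3512 Xist reads and 0 to 2 reads of Y-linked genes, while the other 4 held 0 to 6 Xist reads and 2519 to 3018 Y-linked reads. Each genotype thus had 2 libraries of each kind, and results are also given within each kind, where 2 libraries face 2. Among markers of the labelled tissue, the summed level of 10 ventricular cardiomyocyte genes was 55685 to 78107 CPM in YY1 KO hearts, against 82069.8 to 107585 CPM in control hearts. Of these 10 genes, 4 fell (Actc1, Tnnc1, Myl2 and Myl3) and 0 rose, while over all tested genes 17.3% fell and 21.6% rose. In whole tissue, fewer cells of a type and less RNA per cell cannot be told apart.

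Of the 10 junction genes, 3 rose in YY1 KO hearts, 3 fell and 4 did not pass the test. Dsp, Pkp2 and Ctnna3 rose, where 21.6% of all tested genes did. Gja1, Gjc1 and Dsc2 fell, where 17.3% of all tested genes did. The levels of the 2 groups of hearts did not overlap for the same 6 genes, and 38.3% of all tested genes also showed no overlap. The median log2 fold change was −0.04 over the members and 0.01 over the 13506 genes tested. A gene passed the test where its p from edgeR's quasi-likelihood F test, adjusted by the Benjamini-Hochberg method over all tested genes, was under 0.05. With 1 heart left out, the count of higher members was 1 without YY1 KO 2, YY1 KO 3, control 3 or control 4 (Pkp2), 2 without control 2 (Pkp2 and Ctnna3) and 4 without YY1 KO 4 (Gja5 added). The count of lower members was 4 without YY1 KO 2 or control 3 (Dsg2 added) and 2 without YY1 KO 3 (Gja1 and Dsc2). In the libraries with Y-linked reads 3 members passed as higher (Gja5, Pkp2 and Ctnna3) and 1 as lower (Gja1). In the libraries with Xist reads 0 members passed, and no gene of the whole table passed in edgeR, although 3451 genes had an unadjusted p under 0.05.

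**Figure D1:**
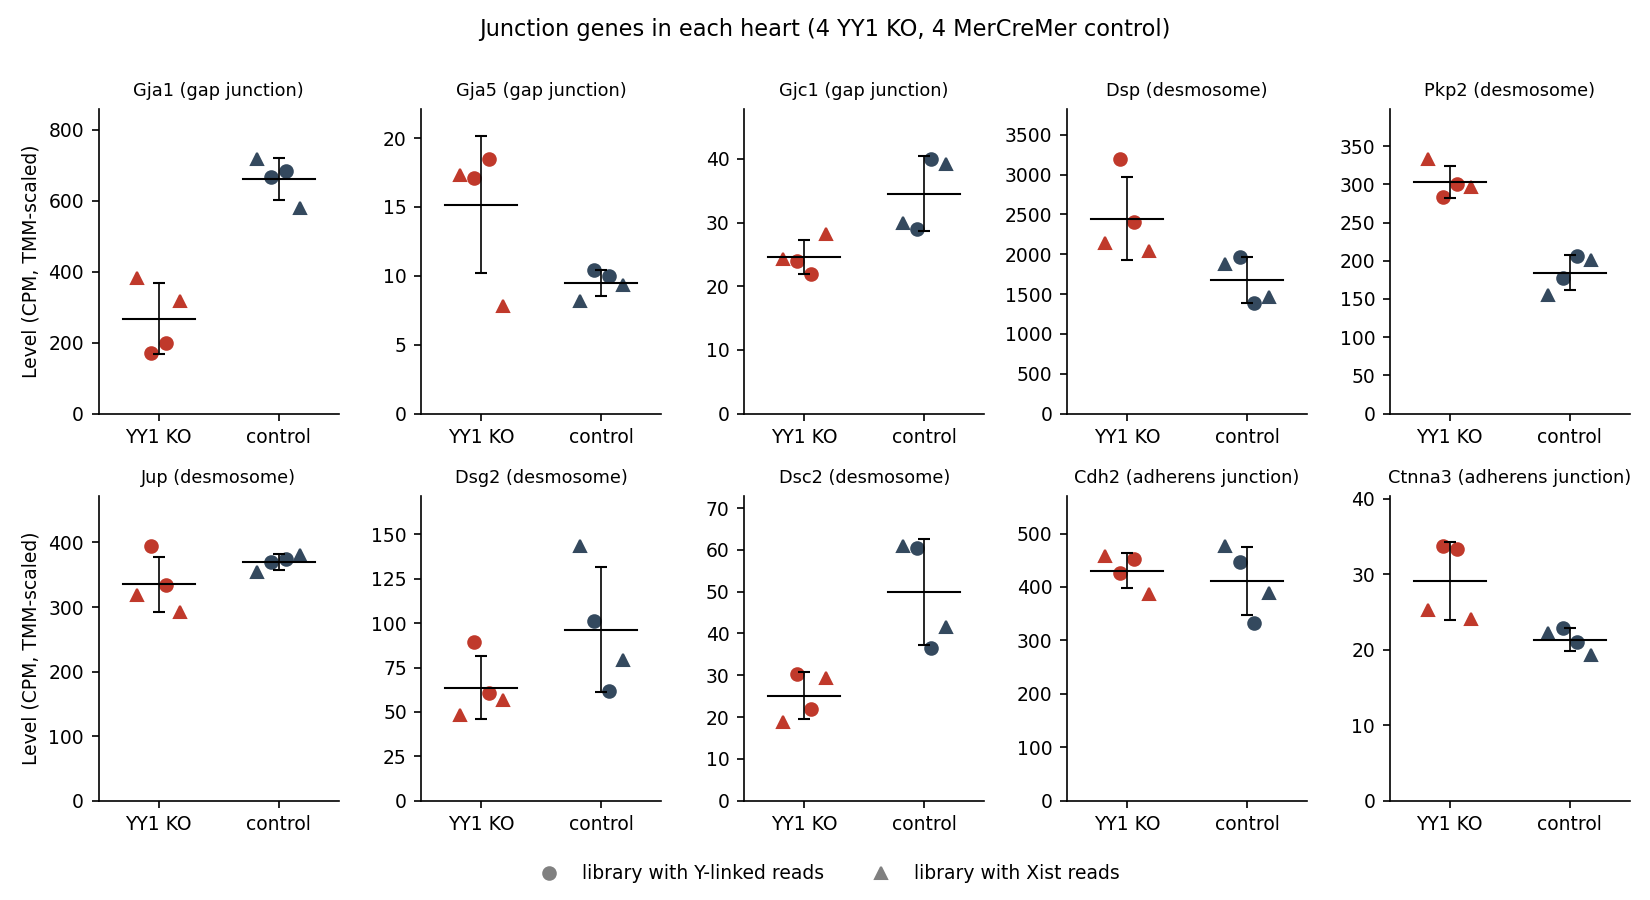
Level of each junction gene in each heart, in CPM scaled by TMM factors on linear axes that start at 0, with YY1 KO hearts (red) left of MerCreMer control hearts (dark blue). Circles are libraries with Y-linked reads and triangles libraries with Xist reads, and the line and bar are the mean and SD of 4 hearts. Gja1, Gjc1 and Dsc2 sit lower in all 4 YY1 KO hearts than in any control heart, and Dsp, Pkp2 and Ctnna3 sit higher.

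Gja1 encodes connexin 43, the main connexin of working ventricular muscle, and lies on mouse chromosome 10 (56377330 to 56402513, plus strand, GRCm38). Its level was 383, 172, 199 and 319 CPM in YY1 KO hearts 1 to 4, against 717, 667, 684 and 579.5 CPM in control hearts 1 to 4. The groups did not overlap, and the lowest values were those of YY1 KO 2 and YY1 KO 3. Gja1 averaged 268 ± 99.7 CPM in YY1 KO hearts and 662 ± 58.8 CPM in control hearts (SD, n = 4 each). It fell by 1.30 ± 0.24 on the log2 scale, to 40.5% of the control mean (adjusted p = 0.00344, 95% interval of the log2 fold change −1.85 to −0.75). The log2 fold change was −1.88 ± 0.17 in the libraries with Y-linked reads (adjusted p = 0.00399) and −0.89 ± 0.21 in those with Xist reads (adjusted p = 0.114). The difference between these, tested as an interaction, had an unadjusted p of 0.00497 and an adjusted p of 0.812, so it did not pass. Of all tested genes 5.20% had an unadjusted interaction p under 0.05.

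Gjc1 encodes connexin 45, a connexin of the conduction system and the developing heart (chromosome 11, 102799579 to 102819700, minus strand). It was at 24.2, 24.0, 21.9 and 28.2 CPM in YY1 KO hearts, against 29.9, 29.0, 39.9 and 39.3 CPM in control hearts. The groups did not overlap, though YY1 KO 4 and control 2 lay close together. Gjc1 fell by 0.49 ± 0.14 on the log2 scale (adjusted p = 0.0190). The adjusted p was 0.0602 without YY1 KO 3, 0.0587 in the libraries with Y-linked reads and 0.271 in those with Xist reads.

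Gja5 encodes connexin 40, the connexin of atrial muscle, of the fast conduction system and of arterial endothelium (chromosome 3, 96904693 to 97077416, plus strand). Its level was 17.3, 17.1, 18.5 and 7.79 CPM in YY1 KO hearts, against 8.17, 10.4, 9.98 and 9.36 CPM in control hearts. In 3 YY1 KO hearts it lay above every control heart, and in YY1 KO 4 it lay below all of them. Gja5 did not pass the test (log2 fold change 0.68 ± 0.25, 95% interval 0.12 to 1.24, adjusted p = 0.0556). Without YY1 KO 4 it passed (0.90, adjusted p = 0.00105). It also passed in the libraries with Y-linked reads (0.78 ± 0.17, adjusted p = 0.0219) and not in those with Xist reads (0.52 ± 0.42, adjusted p = 0.484). Part of Gja5 overlaps Gpr89 on the opposite strand, and with reads of the sense strand alone its adjusted p was 0.0499.

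Because Gja5 marks atrial, conduction and arterial cells, the marker lists of those cells were read beside it. The background was the 21.6% of all tested genes that rose and the 17.3% that fell. Of 10 atrial genes 7 were abundant enough to be tested, and 3 of these rose (Myl4, Dkk3 and Pam) and 2 fell (Stard10 and Clec3b). The higher count was 2 without YY1 KO 1, YY1 KO 4 or control 2, and the lower count was 0 without YY1 KO 1 or YY1 KO 3 and 1 without YY1 KO 2, YY1 KO 4, control 1 or control 2. The log2 fold change of Myl4, an atrial myosin light chain gene, was 2.48 over all hearts and 1.48 without YY1 KO 4 (adjusted p = 0.00347). The summed atrial level was 5159 to 5941 CPM in YY1 KO hearts and 1436 to 5762 CPM in control hearts, and Bmp10 was at 0 in every library. That sum also takes in Nppa and Pam, and Myl7 and Sln were a small part of it in every heart. It was not tested as a measure of atrial tissue. Myl7 and Sln were high in 1 heart. Myl7, another atrial myosin light chain gene, was at 11.5 CPM in YY1 KO 4 and at most 0.19 CPM in every other heart. Sln, the atrial calcium pump inhibitor sarcolipin, was at 3.99 CPM in YY1 KO 4 and at most 0.14 CPM elsewhere. The heart with these atrial reads was the one with the least Gja5. Of 8 tested conduction genes out of 12, 0 rose and Hcn4 fell (1 rose without control 4, and 2 fell without YY1 KO 2 or control 3), with a summed level of 23.8 to 37.7 CPM in YY1 KO hearts and 28.5 to 38.9 CPM in control hearts, and Isl1 was at 0 in every library. Of 9 tested arterial endothelial genes out of 10, 2 rose (Gja4 and Fbln5) and 2 fell (Efnb2 and Dll4), with sums of 207 to 259 CPM in YY1 KO hearts and 172 to 218 CPM in control hearts. The arterial calls were 1 higher and 1 lower without YY1 KO 1, 1 higher without YY1 KO 2 or control 2, and 1 lower without YY1 KO 3. The part of these cells in the Gja5 values was not tested.

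Within a heart, the mix of connexin RNA was also given as shares of the 3 genes after division by exon length, which does not depend on the scaling between libraries. By the union of exons, Gja1 made up 68.3 to 82.6% of it in YY1 KO hearts, against 85.6 to 90.4% in control hearts. Gja5 made up 3.56 to 12.2% in YY1 KO hearts, against 1.84 to 2.49% in control hearts. The shares depend on the length used. By the longest transcript Gja1 made up 79.1 to 89.3% in YY1 KO hearts and 91.4 to 94.4% in control hearts. Gja5 then made up 2.30 to 8.36% in YY1 KO hearts and 1.14 to 1.56% in control hearts. The union of exons is used for the shares that follow. Gjc1 made up 10.7 to 19.6% in YY1 KO hearts and 7.74 to 11.9% in control hearts, so that its share overlapped between the groups although its level did not. The log2 ratio of Gja5 to Gja1 reads was −4.14 ± 0.96 in YY1 KO hearts and −6.12 ± 0.23 in control hearts (SD, n = 4 each), a difference of 1.98 with no overlap. Its two-sided exact permutation p was 0.0286, the smallest that 4 hearts against 4 allow, and 0.0571 after adjustment over the 6 ratios compared. In YY1 KO 4 the ratio (−5.35) and the Gja5 share (3.56%) lay above those of every control heart. The Gja5 level of that heart, 7.79 CPM, lay below all control hearts (8.17 to 10.4 CPM). Its Gja1 level, 319 CPM, did so too (control hearts 579.5 to 717 CPM). The log2 ratio of Gjc1 to Gja1 was −3.38 ± 0.49 in YY1 KO hearts and −4.27 ± 0.34 in control hearts, and the ranges overlapped (exact permutation p = 0.0571, adjusted 0.0686).

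**Figure D2:**
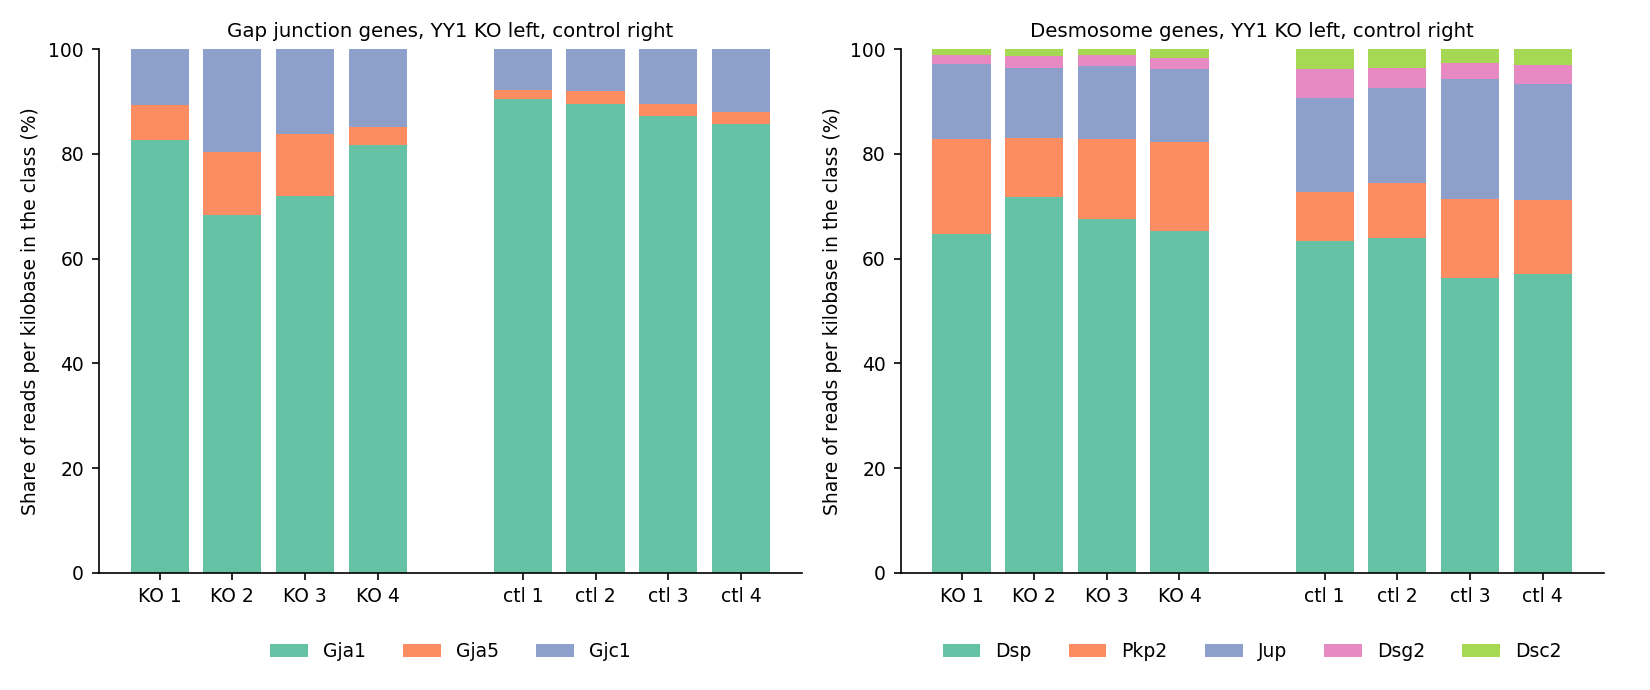
Share of each gene in the summed reads per kilobase of exon of the gap junction genes (left panel) and the desmosome genes (right panel), in percent, 1 bar per heart, with YY1 KO hearts left of control hearts (ctl). Gja1 fills 68.3 to 82.6% of the gap junction bars of YY1 KO hearts and 85.6 to 90.4% of those of control hearts, and Jup fills 13.3 to 14.4% of the desmosome bars of YY1 KO hearts and 17.9 to 22.9% of those of control hearts.

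Dsp encodes desmoplakin, the plaque protein that binds the desmin filaments (chromosome 13, 38151294 to 38198577, plus strand). Its level was 2146, 3192, 2409 and 2045 CPM in YY1 KO hearts, against 1883, 1961, 1386 and 1465 CPM in control hearts. The highest control heart lay just under the lowest YY1 KO heart, and YY1 KO 2 stood above the rest. Dsp averaged 2448 ± 519 CPM in YY1 KO hearts and 1674 ± 290.1 CPM in control hearts (SD, n = 4 each). It rose by 0.55 ± 0.19 on the log2 scale (adjusted p = 0.0423). This call lay close to the threshold and did not hold without YY1 KO 2 (adjusted p = 0.0975), YY1 KO 3 (0.0860), control 2 (0.0530), control 3 (0.0983) or control 4 (0.115). It did not pass in the libraries with Y-linked reads (0.72 ± 0.27, adjusted p = 0.0953) or with Xist reads (0.32 ± 0.24, adjusted p = 0.452).

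Pkp2 encodes plakophilin 2, the armadillo protein that links desmoplakin to the desmosomal cadherins (chromosome 16, 16213318 to 16272712, plus strand). It was at 333, 283, 299.8 and 296 CPM in YY1 KO hearts, against 155, 177, 206 and 200.5 CPM in control hearts. All 4 YY1 KO hearts lay well above all 4 control hearts. Pkp2 rose by 0.71 ± 0.11 on the log2 scale, to 164% of the control mean (adjusted p = 0.00155). It had the smallest adjusted p of the 10 genes and passed with each heart left out in turn. The log2 fold change was 0.59 ± 0.15 in the libraries with Y-linked reads (adjusted p = 0.0372) and 0.82 ± 0.19 in those with Xist reads (adjusted p = 0.113).

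Jup encodes plakoglobin, also called gamma-catenin, which sits in desmosomes and adherens junctions alike (chromosome 11, 100368958 to 100397763, minus strand). It was at 319, 394, 335 and 292 CPM in YY1 KO hearts, against 353.6, 369.5, 375.1 and 380.8 CPM in control hearts. The groups overlapped, with both the highest and the lowest value in YY1 KO hearts. Jup did not pass the test (log2 fold change −0.14 ± 0.11, adjusted p = 0.316), and its 95% interval ran from −0.39 to 0.10.

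The ratio of Pkp2 to Jup reads was 1.04, 0.718, 0.896 and 1.01 in YY1 KO hearts 1 to 4, against 0.438, 0.480, 0.548 and 0.526 in control hearts 1 to 4. It did not overlap between the groups. The log2 ratios averaged −0.14 ± 0.25 in YY1 KO hearts and −1.01 ± 0.14 in control hearts (SD, n = 4 each; exact permutation p = 0.0286, adjusted over 6 ratios 0.0571). The log2 ratio of Dsp to Des, which encodes the filament protein desmin, was −2.18 ± 0.34 in YY1 KO hearts and −0.90 ± 0.45 in control hearts, with no overlap (exact permutation p = 0.0286, adjusted 0.0571). Des itself averaged 11109 CPM in YY1 KO hearts and 3116 CPM in control hearts.

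Dsc2 and Dsg2 encode desmocollin 2 and desmoglein 2, the cadherins that span the membrane in heart desmosomes. They lie 0.499 Mb apart in the desmosomal cadherin cluster of chromosome 18 (Dsc2 at 20030633 to 20059554 on the minus strand, Dsg2 at 20558074 to 20604521 on the plus strand). The other 7 genes of that cluster, which include the skin desmogleins, had at most 4 reads in any library. Dsc2 was at 18.9, 30.2, 21.9 and 29.4 CPM in YY1 KO hearts, against 60.8, 60.5, 36.4 and 41.6 CPM in control hearts. The groups did not overlap, and the control values fell into a higher pair (control 1 and control 2) and a lower pair (control 3 and control 4). The same split of the control hearts, in either direction, was seen in Gjc1, Dsp, Pkp2, Jup, Dsg2, Cdh2 and Ctnna3, and not in Gja1 or Gja5. Its cause was not tested. Dsc2 fell by 0.99 ± 0.21 on the log2 scale, to 50.4% of the control mean (adjusted p = 0.00646), and passed with each heart left out in turn. The log2 fold change was −0.92 ± 0.29 in the libraries with Y-linked reads (adjusted p = 0.0672) and −1.08 ± 0.30 in those with Xist reads (adjusted p = 0.129).

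Dsg2 was at 48.4, 89.3, 60.4 and 56.7 CPM in YY1 KO hearts, against 143.2, 101.1, 61.8 and 79.5 CPM in control hearts. The groups overlapped through YY1 KO 2, which was the highest YY1 KO heart, and control 3, which was the lowest control heart. Dsg2 did not pass the test (log2 fold change −0.60 ± 0.27, 95% interval −1.20 to 0.01, adjusted p = 0.108). It passed without YY1 KO 2 (−0.80, adjusted p = 0.0463) and without control 3 (−0.76, adjusted p = 0.0421). The ratio of Dsc2 to Dsg2 reads overlapped between the groups, with log2 means of −1.33 ± 0.27 in YY1 KO hearts and −0.92 ± 0.23 in control hearts (exact permutation p = 0.0571, adjusted over 6 ratios 0.0686).

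By length-corrected share of the 5 desmosome genes (union of exons), Dsp made up 64.7 to 71.7% in YY1 KO hearts, against 56.4 to 64.0% in control hearts. By the longest transcript Dsp made up 49.80 to 57.96% in YY1 KO hearts and 41.26 to 49.76% in control hearts, so the groups nearly touched. Jup made up 13.3 to 14.4% in YY1 KO hearts and 17.9 to 22.9% in control hearts, without overlap, although its level overlapped. Dsg2 made up 1.70 to 2.34% in YY1 KO hearts and 2.94 to 5.63% in control hearts, and Dsc2 1.05 to 1.72% in YY1 KO hearts and 2.71 to 3.75% in control hearts. Both cadherins were thus a smaller part of the desmosome RNA in every YY1 KO heart. The shares of a heart depend on each other, so a gene's share can fall without a fall in its level. By level, Jup (adjusted p = 0.316) and Dsg2 (adjusted p = 0.108) did not pass in edgeR. Pkp2 made up 11.4 to 18.1% in YY1 KO hearts and 9.40 to 15.1% in control hearts, with overlap.

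Cdh2 encodes N-cadherin, the adhesion receptor of the adherens junction (chromosome 18, 16588877 to 16809246, minus strand). It was at 457, 426, 452 and 387 CPM in YY1 KO hearts, against 476, 446, 332 and 389 CPM in control hearts. The groups overlapped over almost their whole range. Cdh2 did not pass the test (log2 fold change 0.07 ± 0.13, adjusted p = 0.701), and its 95% interval ran from −0.22 to 0.36.

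Ctnna3 encodes alpha-T-catenin, a heart and testis alpha-catenin that binds plakophilin 2 and joins N-cadherin to actin (chromosome 10, 63430098 to 65003667, plus strand). Its level was 25.2, 33.7, 33.4 and 24.0 CPM in YY1 KO hearts, against 22.18, 22.85, 20.97 and 19.29 CPM in control hearts. The groups did not overlap, and the 2 YY1 KO hearts with Xist reads lay nearer to the control hearts than the 2 with Y-linked reads. Ctnna3 rose by 0.45 ± 0.13 on the log2 scale (adjusted p = 0.0258). It did not pass without YY1 KO 2 (adjusted p = 0.0656), YY1 KO 3 (0.0779), control 3 (0.0552) or control 4 (0.0725). The log2 fold change was 0.60 ± 0.14 in the libraries with Y-linked reads (adjusted p = 0.0282) and 0.25 ± 0.16 in those with Xist reads (adjusted p = 0.380). The ratio of Ctnna3 to Ctnna1, the alpha-catenin found in most cells, overlapped between groups, with log2 means of −4.56 ± 0.16 in YY1 KO hearts and −4.85 ± 0.19 in control hearts (exact permutation p = 0.0857, adjusted over 6 ratios 0.0857).

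**Figure D3:**
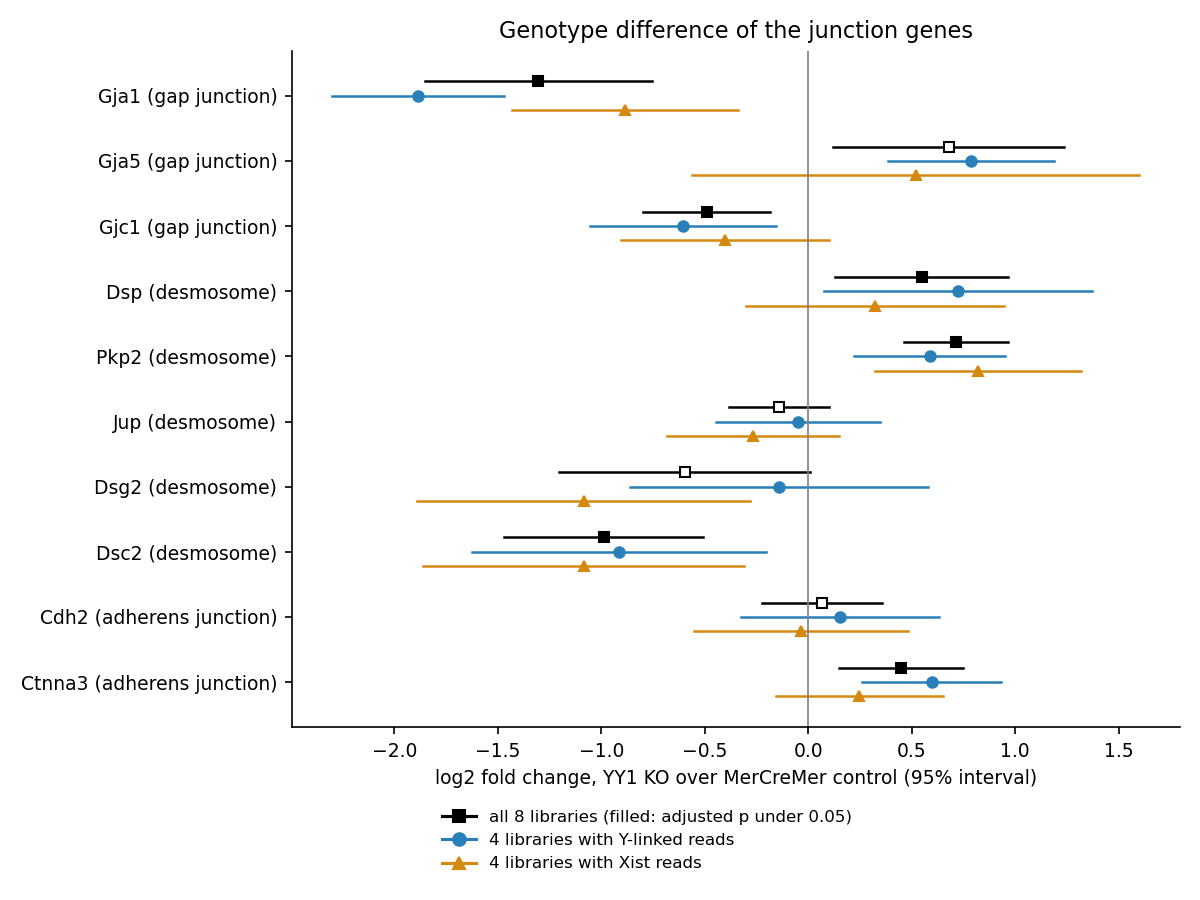
Log2 fold change of each junction gene, YY1 KO over MerCreMer control, with its 95% interval on the horizontal axis, over all 8 libraries (black squares, filled where the adjusted p was under 0.05), over the 4 libraries with Y-linked reads (blue circles) and over the 4 with Xist reads (orange triangles). Gja1 lies at −1.30 over all libraries, −1.88 in those with Y-linked reads and −0.89 in those with Xist reads, while Jup lies between −0.27 and −0.05 in all 3.

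Per kilobase of exon, desmoplakin RNA was the most abundant of the 10 in both groups, at 253 ± 53.7 CPM per kb in YY1 KO hearts and 173 ± 30.04 CPM per kb in control hearts. In YY1 KO hearts Pkp2 (56.5 ± 3.95 CPM per kb), Cdh2 (53.4 ± 3.98) and Jup (52.0 ± 6.71) came next and lay within 1 SD of each other. Gja1 followed at 26.1 ± 9.72 CPM per kb in YY1 KO hearts, while in control hearts it stood behind Dsp alone, at 64.5 ± 5.73 CPM per kb. In control hearts the next were Jup at 57.4 ± 1.82, Cdh2 at 50.9 ± 7.89 and Pkp2 at 34.4 ± 4.34 CPM per kb. The other 5 genes ranged over 2.64 to 7.71 CPM per kb in YY1 KO hearts and 1.65 to 11.7 CPM per kb in control hearts, with Dsg2 the highest and Gja5 the lowest in both. With the longest transcript as the length, Gja1 still ranked 5 in YY1 KO hearts and 2 in control hearts. The order of Pkp2, Cdh2 and Jup in YY1 KO hearts changed. By that length Dsp and Gja1 lay close together in control hearts, at 174.5 ± 30.2 and 170.2 ± 15.1 CPM per kb. In control 3 Gja1 then lay above Dsp (176.0 against 144.5 CPM per kb), so the lead of Dsp there depended on the length used.

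The promoters of members that moved are shown because YY1 binds DNA by sequence. The RefSeq promoter table for GRCm38.p6, with 250 bases before and 50 bases from each start on, held 7 windows for 5 members (Gja1, Gja5, Ctnna3, Jup and Dsp). The 3 printed windows are those of the connexin that fell most and of 2 members that rose. Capitals mark the letters TGANTCA, to which Jun and Fos dimers (AP-1) bind, in Gja1, and the GC box GGGCGG on either strand, to which Sp factors bind, in Dsp and Ctnna3. Both sets of letters were looked for after the values had been seen.
Gja1 (chr10:56377050-56377349, plus strand): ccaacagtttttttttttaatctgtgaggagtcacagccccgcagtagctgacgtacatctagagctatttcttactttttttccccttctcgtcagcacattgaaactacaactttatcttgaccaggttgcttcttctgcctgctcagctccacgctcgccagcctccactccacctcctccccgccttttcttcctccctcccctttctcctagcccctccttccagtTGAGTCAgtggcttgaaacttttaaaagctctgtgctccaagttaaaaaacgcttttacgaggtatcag
Dsp (chr13:38151044-38151343, plus strand): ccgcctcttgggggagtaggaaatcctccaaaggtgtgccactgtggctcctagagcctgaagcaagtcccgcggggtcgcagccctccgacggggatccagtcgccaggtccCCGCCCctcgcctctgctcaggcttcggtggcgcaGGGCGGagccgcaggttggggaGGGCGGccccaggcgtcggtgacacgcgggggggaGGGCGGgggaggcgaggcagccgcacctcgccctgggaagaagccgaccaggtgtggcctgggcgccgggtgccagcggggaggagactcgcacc
Ctnna3 (chr10:63429848-63430147, plus strand): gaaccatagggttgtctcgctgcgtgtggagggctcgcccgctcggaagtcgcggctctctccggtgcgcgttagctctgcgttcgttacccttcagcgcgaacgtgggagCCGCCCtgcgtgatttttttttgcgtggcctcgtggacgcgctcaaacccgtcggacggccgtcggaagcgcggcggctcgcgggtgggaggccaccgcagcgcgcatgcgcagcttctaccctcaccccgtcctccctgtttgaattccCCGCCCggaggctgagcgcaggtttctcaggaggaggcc

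The letters CCATNTT, the core of YY1's recognition sequence, were in 0 of the 7 member windows on either strand and in 16.1% of the 32851 windows of the table. The longer form AANATGGC contains the same letters read on the other strand, so its absence from the 7 member windows follows from theirs. It was in 6.05% of all windows. The 0 of 7 says only that those letters are not in these 300 bases. TGANTCA was in 1 of 7 windows, as TGAGTCA beginning 19 bases before the Gja1 start, and in 7.81% of all windows. GGGCGG was in 4 of 7 windows (Gja5, Ctnna3, Jup and Dsp) and in 35.7% of all windows. The Dsp window had 4 GC boxes, 73% G or C and 27 CpG pairs, and the Gja1 window 47.7% G or C and 8 CpG pairs. Jun, the AP-1 subunit, was at 97.7 ± 28.7 CPM in YY1 KO hearts and 154 ± 20.2 CPM in control hearts, and Sp1 at 36.7 ± 4.16 CPM in YY1 KO hearts and 47.9 ± 1.74 CPM in control hearts (SD, n = 4 each). Whether these factors bind the windows or act on the junction genes was not tested.

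Partners of the junction genes were read from lists of genes by role, beside the 38.9% of all tested genes that passed in either direction. Among 20 other connexin and pannexin genes only 5 were abundant enough to be tested. Panx2, a pannexin channel gene, rose by 2.56 ± 0.43 on the log2 scale (adjusted p = 0.00209), with 3.11 CPM in YY1 KO hearts and 0.526 CPM in control hearts. Its control mean lay under the 0.648 CPM that the abundance filter asked for in at least 4 libraries. Panx2 was thus kept for testing at least in part through the YY1 KO hearts. Gja3, which encodes connexin 46, fell by 1.21 ± 0.25 (adjusted p = 0.00542), with 11.01 CPM in YY1 KO hearts and 25.53 CPM in control hearts. Gja4, the endothelial connexin 37 gene, rose by 0.40 ± 0.12 (adjusted p = 0.0293), a call that did not hold without YY1 KO 1, YY1 KO 2, YY1 KO 4, control 1 or control 2 (adjusted p 0.0572 to 0.0883). Of 13 other desmosome genes 4 were tested. Pkp4, a plakophilin relative of p120 catenin, rose by 0.61 ± 0.13 (adjusted p = 0.00701), while Perp, Ppl and Evpl did not pass.

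Of 21 tested genes of the adherens junction and area composita, 5 rose, 4 fell and 12 did not pass. Beside them, 21.6% of all tested genes rose and 17.3% fell. The calls were 3 and 3 without YY1 KO 1 or YY1 KO 3, and 2 and 3 without control 2. Enah, an actin regulator at the disc, rose by 1.53 ± 0.33 on the log2 scale (adjusted p = 0.00632), and Sorbs2, an actin-binding scaffold, by 1.06 ± 0.20 (adjusted p = 0.00344). Cdh4, the R-cadherin gene, fell by 1.81 ± 0.28 (adjusted p = 0.00151), and Mllt4, which encodes the nectin-binding protein afadin, by 0.47 ± 0.11 (adjusted p = 0.00837). Arvcf, another gene of this list, rose in edgeR over all hearts. Its call was lost without YY1 KO 1, YY1 KO 4, control 1, control 2 or control 4 (adjusted p 0.0565 to 0.0763). Ctnnb1, Ctnna1, Ctnnd1 and Vcl did not pass in edgeR over all hearts. Beta-catenin (Ctnnb1) was at 502 ± 12.2 CPM in YY1 KO hearts and 570.3 ± 40.8 CPM in control hearts (adjusted p = 0.144) and was lower in DESeq2 (log2 fold change −0.21, adjusted p = 0.00546). The gene of alpha-E-catenin (Ctnna1) had an edgeR log2 fold change of 0.14 (adjusted p = 0.407) and p120 catenin (Ctnnd1) one of 0.13 (adjusted p = 0.304). Vinculin (Vcl), at 0.23, had an adjusted p of 0.0853 over all hearts and 0.0462 without control 4.

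Among 20 tested tight junction and adaptor genes of the disc, 2 rose, 6 fell and 12 did not pass. The shares over all tested genes were 21.6% higher and 17.3% lower. The 2 that rose were Lgals3 and Tmem43, of which Tmem43, a gene of inherited arrhythmogenic cardiomyopathy, did not pass without control 2 (adjusted p = 0.0537). Tmem65, a disc membrane protein that binds connexin 43, was at 115 ± 14.9 CPM in YY1 KO hearts and 217 ± 42.0 CPM in control hearts (log2 fold change −0.91 ± 0.15, adjusted p = 0.00207). Jam2, a junctional adhesion molecule, fell by 0.83 ± 0.13 (adjusted p = 0.00141), Ank2, the ankyrin B gene, by 0.78 ± 0.15 (adjusted p = 0.00391) and Cav3, the muscle caveolin gene, by 0.64 ± 0.10 (adjusted p = 0.00182). Tjp1, which encodes ZO-1 and binds the tail of connexin 43, did not pass (−0.17, adjusted p = 0.135). Cxadr, which encodes the coxsackievirus and adenovirus receptor, did not pass either (0.04, adjusted p = 0.801).

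The sodium and potassium channel partners stood lowest of the lists by median, at −0.77 on the log2 scale, against 0.01 over all tested genes. Of 12 tested genes 1 rose, 6 fell and 5 did not pass, where 21.6% of all tested genes rose and 17.3% fell. The lower count was 5 without YY1 KO 1, YY1 KO 3, control 2, control 3 or control 4. It was 7 without YY1 KO 2. Scn4b, which encodes a beta subunit of voltage-gated sodium channels, was at 4.02 ± 1.15 CPM in YY1 KO hearts and 62.1 ± 31.2 CPM in control hearts (SD, n = 4 each). It fell by 3.95 ± 0.41 on the log2 scale (adjusted p = 0.000324). Kcnip2, the subunit of the transient outward current, fell by 2.15 ± 0.40 (adjusted p = 0.00336), and Kcnj2, an inward rectifier gene, by 1.68 ± 0.33 (adjusted p = 0.0041).

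Among 17 genes that link the disc to the sarcomere, 3 rose, 2 fell and 12 did not pass. For this list and the next, the background was 21.6% of all tested genes higher and 17.3% lower. Without control 3 the higher count was 6. Des rose by 1.83 ± 0.19 on the log2 scale (adjusted p = 0.000331) and Synm, the gene of the filament protein synemin, by 1.71 ± 0.14 (adjusted p = 0.000172). Fhl2, a LIM protein of the sarcomere and nucleus, fell by 1.83 ± 0.17 (adjusted p = 0.000249), and Murc, a caveolae-associated muscle gene, by 1.05 ± 0.17 (adjusted p = 0.00191). Of 16 genes for delivery and removal of gap junctions, 4 rose, 1 fell and 11 did not pass. Mapre1, which encodes the microtubule tip protein EB1 that guides connexin 43 vesicles, rose by 0.50 ± 0.11 (adjusted p = 0.00725), Usp8, a deubiquitinase, by 0.49 ± 0.08 (adjusted p = 0.0015), and Eps15, an endocytic adaptor, by 0.40 ± 0.09 (adjusted p = 0.0066). Ubqln4, the gene of a ubiquitin-binding partner of connexin 43, fell by 0.45 ± 0.09 (adjusted p = 0.00462). A second gene of this list was lower without YY1 KO 2 or control 1.

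Of 17 tested transcription factors that act on cardiac connexin genes, 0 rose, 4 fell and 13 did not pass. Beside them, 21.6% of all tested genes rose and 17.3% fell. The lower count was 2 without YY1 KO 1, YY1 KO 2, control 2 or control 3, and 3 without YY1 KO 3 or control 4. Hopx, a homeodomain cofactor whose loss lowers connexin 40 in the mouse conduction system, fell by 1.99 ± 0.44 on the log2 scale (adjusted p = 0.00724), and Sp1 by 0.38 ± 0.09 (adjusted p = 0.0114). Jun fell by 0.66 ± 0.19 (adjusted p = 0.0249) and Tbx3, a repressor of working-muscle connexins, by 0.78 ± 0.26 (adjusted p = 0.0389). The calls of Jun (adjusted p 0.0548 to 0.0643) and Tbx3 (0.0548 to 0.104) were lost without any of YY1 KO 1, YY1 KO 2, YY1 KO 3, control 2, control 3 or control 4. Tbx5 and Nkx2-5, which activate cardiac connexin genes, did not pass (−0.27, adjusted p = 0.612, and 0.14, adjusted p = 0.589).

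**Figure D4:**
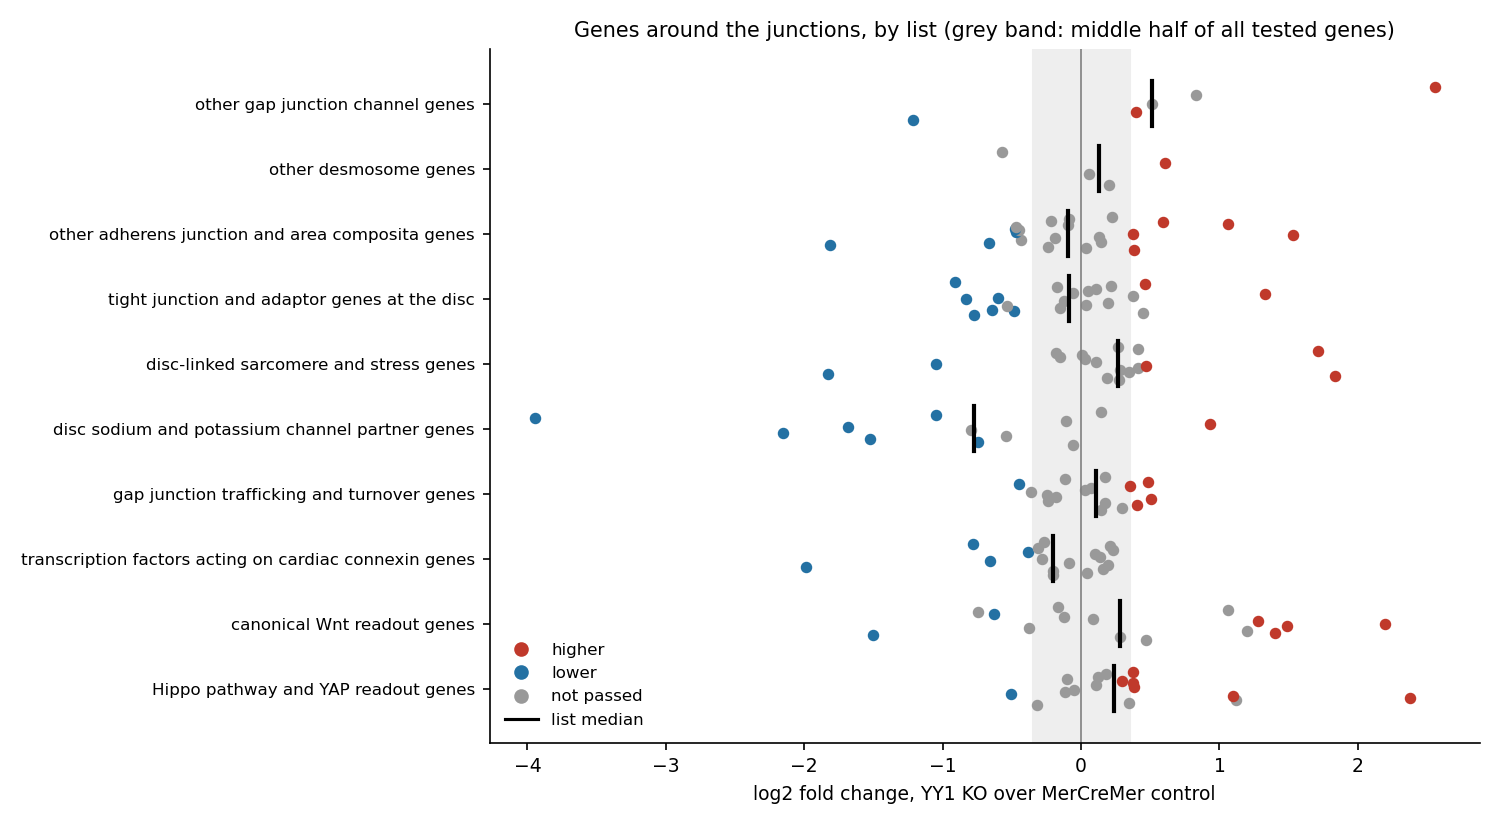
Log2 fold change, YY1 KO over MerCreMer control, of each tested gene (1 point per gene) of 10 lists around the junctions, with red for genes that rose, blue for genes that fell, grey for genes that did not pass, and a black bar at each list's median. The grey band runs from the lower to the upper quartile of all tested genes (−0.35 to 0.35). Outside it lie the medians of the sodium and potassium channel list (−0.77) and the other gap junction channel list (0.52, 5 genes tested).

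Plakoglobin and beta-catenin also act in Wnt and Hippo signalling, so readout genes of both pathways were counted. The background was again 21.6% of all tested genes higher and 17.3% lower. Of 15 tested Wnt readout genes 4 rose, 2 fell and 9 did not pass. Without YY1 KO 1, YY1 KO 4 or control 2 the higher count was 2. It was 3 without YY1 KO 3, control 1 or control 4, and 5 without control 3. Notum, a secreted Wnt inhibitor, rose by 2.20 ± 0.28 on the log2 scale (adjusted p = 0.00073) and Sfrp1, another one, by 1.28 ± 0.34 (adjusted p = 0.0165). Ccnd1, the cyclin D1 gene, fell to 35.3% of the control mean (adjusted p = 0.00609) and Tcf7l2, a Wnt transcription factor, by 0.63 ± 0.13 on the log2 scale (adjusted p = 0.00637). Axin2, the usual readout of canonical Wnt signalling, did not pass (0.28 ± 0.27, adjusted p = 0.435). Of 16 Hippo pathway and YAP readout genes 6 rose, 1 fell and 9 did not pass. Without control 4 the higher count was 1. It was 2 without YY1 KO 1, YY1 KO 3, control 1 or control 2, and 3 without YY1 KO 2 or control 3. Without YY1 KO 4 it was 4, so no fit without 1 heart kept all 6. The lower count was 2 without YY1 KO 2, when Amotl1 was added (adjusted p = 0.0317). Ctgf, a YAP readout that also responds to load, rose by 2.38 ± 0.56 (adjusted p = 0.00985), and Lats1, which encodes a kinase that restrains YAP, fell by 0.51 ± 0.10 (adjusted p = 0.00358). Stk4, a Hippo kinase gene, rose by 0.30 ± 0.08 (adjusted p = 0.0212) and did not pass without YY1 KO 1, YY1 KO 3, control 1 or control 4 (adjusted p 0.0521 to 0.067). Nf2, an upstream activator of the pathway, rose by 0.38 ± 0.11 (adjusted p = 0.0259) and did not pass without YY1 KO 2, YY1 KO 3 or any 1 of the 4 control hearts (adjusted p 0.054 to 0.078).

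Markers of the other heart cells that carry junction genes were measured beside these results. Over all tested genes 21.6% rose and 17.3% fell. Of 10 endothelial genes 1 rose (Vwf) and 7 fell, with a summed level of 1378 to 1662 CPM in YY1 KO hearts, against 1858 to 2497 CPM in control hearts. The lower count was 4 without YY1 KO 2 and 9 without control 1, and without YY1 KO 3 Vwf did not pass. Of 9 mural cell genes 0 rose (1 without YY1 KO 2) and 4 fell (834 to 1032 CPM in YY1 KO hearts, against 1233 to 1492 CPM in control hearts). Of 10 fibroblast genes 1 rose, Pdgfra, which did not pass without YY1 KO 3, YY1 KO 4, control 1 or control 2 (3918 to 5939 CPM in YY1 KO hearts, against 2639 to 4098 CPM in control hearts). Without YY1 KO 4, Dpt was lower instead (log2 fold change −0.44, adjusted p = 0.0410). Macrophage genes (0 of 8 passed; 229 to 312 CPM in YY1 KO hearts, against 205 to 338 CPM in control hearts) and epicardial and mesothelial genes (0 of 4 tested passed out of 10; 28.5 to 52.5 CPM in YY1 KO hearts, against 23.4 to 69.0 CPM in control hearts) did not pass. Of 5 tested Schwann cell genes out of 6, 2 were lower, and at most 1 with any 1 heart left out other than control 3 (10.1 to 12.2 CPM in YY1 KO hearts, against 11.2 to 25.002 CPM in control hearts). The part of these cell types in the junction results was not tested.

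The genes most like each member were taken as those with the highest Pearson r over the 8 libraries after removal of the genotype means, as a description. For Gja1 these were Cenpa (r = 0.965, Spearman rho = 0.929, r without the 2 farthest hearts 0.887), Atic and Hypk. For Gja5 they were Smad6 (r = 0.989, rho = 0.976, 0.958 without the 2 farthest), Cenpq and Sgcd. For Dsp they were Rmnd5a, Glud1 and Rnf166, for Pkp2 Ctss, Serpinf1 and Tagln2, and for Dsg2 Aldh2, Popdc2 and Acadsb. Over all members, r of the 3 genes most alike was 0.953 to 0.997, as the highest values of a search over all expressed genes in 8 libraries that share depth and scaling.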

How the data were processed

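The authors deposited, for each of the 4 YY1 KO and 4 MerCreMer control mice, a table of unnormalized read counts by gene symbol. The submitters' processing notes name Trimmomatic, STAR and the genome build mm10, with no versions in the sources used here. The labels' protocols name Trizol as the reagent used on frozen heart tissue. Counts irrespective of strand were used. Of all reads, 33.0 to 38.9% lay in no gene and were left out of library sizes, and 2.66 to 5.31% of stranded reads fell on the strand opposite to the gene. Libraries of a group differed by more than sampling noise (chi-square 14.6 to 97.4 for each degree of freedom), so each counted as 1 replicate. The labels number separate mice.

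Genes were kept with filterByExpr (minimum count 10, 0.648 CPM, in at least 4 libraries), which left 13506 genes with 99.9% of gene reads. Genotypes were compared with edgeR 4.0.16 in R 4.3.3 (TMM scaling, robust quasi-likelihood F test, group as the single term, Benjamini-Hochberg adjustment, threshold 0.05). Fold changes are log2 of YY1 KO over control, with the standard error taken from the F statistic. CPM were computed with TMM-scaled library sizes, and levels per kb use the union of exons in GENCODE M21 (GRCm38), to which 24027 of the 24411 symbols were matched. The 6 ratios within a heart (counts plus 0.5) were tested by two-sided exact permutation over 70 assignments with scipy 1.17.1. The model was tested on simulated data. Alternatives were DESeq2 1.42.0, limma 3.58.1 voom, other scalings and filters, sense-strand counts, a sex term, a replicate block, single libraries left out, and the libraries with Y-linked or Xist reads alone.

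The members, the 10 partner lists, the marker lists and the split by Xist and Y-linked reads were chosen with earlier results of these data known. All members are described. Of each partner list up to 4 genes with the smallest p are named, with direct junction partners whatever they did, and Sln, Myl7, Lgals3, Tmem43, Amotl1, marker genes and the AP-1 and GC box letters were singled out after their values were seen. Results of some genes of the channel list are not reported here.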

Additional observations from a re-analysis of the deposited data

Results flagged for a closer look

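Gja5 in YY1 KO 4 stood apart from the other hearts of its group, at 7.79 CPM against 17.1 to 18.5 CPM in YY1 KO 1, YY1 KO 2 and YY1 KO 3. Its gap to the next heart was 0.875 of the range of the group, which is past Dixon's 95% limit for 4 samples. The control hearts lay at 8.17 to 10.4 CPM. In all, 32 groups of 4 hearts were looked at, and chance sets off this limit in about 1 of 20 groups.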

How the results depend on the processing

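Among the 10 junction genes, each kept its direction under all 20 alternative settings except Cdh2, whose log2 fold change was −0.036 in the libraries with Xist reads and −0.025 to 0.14 over fits without 1 heart. Gja1 and Pkp2 lost their calls in the Xist-read libraries alone, and Dsc2 there and in the Y-read libraries. Both splits set 2 libraries against 2. In the Y-read libraries 1730 genes were higher over the whole table, 1 junction gene was lower, and 5 genes of the other adherens list, 2 of the Wnt list and 4 of the Hippo list passed. In the Xist-read libraries edgeR called 0 genes of the table, of the members and of every list, with 3451 genes at an unadjusted p under 0.05. No other tool was run there. The difference in the log2 ratio of Pkp2 to Jup was 0.64 in the Y-read and 1.10 in the Xist-read libraries, and that of Dsc2 to Dsg2 was −0.76 in the Y-read and −0.065 in the Xist-read libraries. Leaving out 1 heart gave 1 to 4 higher junction genes, 5 to 10 calls in the other adherens list, 4 to 8 in the disc-linked sarcomere list, 2 to 4 among the transcription factors and 2 to 5 in the Hippo list. Deviations of same-numbered hearts from their group means had r of both signs (−0.464, 0.337, −0.0561 and 0.271 for numbers 1 to 4). Different-numbered hearts were not compared in this way, so these values do not decide whether the numbers pair the hearts. In both groups hearts 1 and 4 had Xist reads and hearts 2 and 3 Y-linked reads, so the replicate block also takes in the sex term. With the replicate block 2210 genes were higher and 1816 lower. Dsp did not pass there (adjusted p = 0.0555), and 3 Hippo genes passed. Dsp also did not pass with RLE scaling (0.0595) or a sex term (0.0522), and Gjc1 did not with library size alone (0.0521). Gja5 passed with library size alone (0.0443) and in DESeq2 (0.0393). The causes of these changes were not tested.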
